A study of Arabidopsis thaliana with 12 samples.

Results

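Expression of 3 genes of chlorophyll and tetrapyrrole synthesis was examined in Arabidopsis thaliana (thale cress) plants returned to 20 °C after photoinhibitory cold, against plants still in the cold. The genes are HEMA3 (AT2G31250), CHLM (AT4G25080) and CHLP (AT1G74470), chosen by their loci as genes measured by a probe that the platform annotation lists with exactly 1 gene. Each had 1 such probe, so they make up 3 of the 689 loci measured in this way. All plants were wild type of ecotype Columbia 0. The recovery group (6 samples) was kept for 24 h at 4 °C in medium light and was then moved to 20 °C for 24 h, again in medium light. The cold group (6 samples) had only the 24 h at 4 °C in medium light. Both groups thus shared the cold treatment, and no group without it was analysed here. The recovery group also had 24 h more in medium light. The return to 20 °C cannot be told apart from this added time. Total RNA was hybridised to expression arrays with 3439 probes in the table. The labels give no tissue or plant age, and none of the 15 loci listed as markers of root, seed, epidermis or senescence had a probe of its own, so tissue could not be checked. In RNA from whole samples, fewer cells of a type and less RNA per cell cannot be told apart.

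Tetrapyrroles are made in the plastid from glutamate bound to its transfer RNA. Glutamyl-tRNA reductase, encoded by the HEMA genes, takes the first committed step towards 5-aminolevulinic acid, and the flow through the pathway is known to be set largely there. Of the HEMA genes only HEMA3 had a probe of its own, so expression of this enzyme as a whole was not measured. Aminolevulinic acid is built up to protoporphyrin IX, which receives iron on the haem branch or magnesium on the chlorophyll branch. CHLM then methylates magnesium protoporphyrin IX, with S-adenosylmethionine as the methyl donor, and CHLP, the geranylgeranyl reductase, makes the phytyl chain that ends up as the tail of chlorophyll and of tocopherol. Free intermediates of the pathway are photosensitisers that generate singlet oxygen in light.

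In recovery the chlorophyll-branch genes CHLM and CHLP were higher and HEMA3 was lower relative to the other probes of the array. On the log2 scale after quantile normalization, CHLM rose by 1.42 ± 0.21 (SE, n = 3 per group), CHLP rose by 0.42 ± 0.12, and HEMA3 fell by 0.68 ± 0.20. All 3 passed an adjusted p of 0.05 in limma's test over all probes on this scale. The signs were the same under the 4 other scalings tried, but HEMA3 did not pass under 2 of them (-0.39 and -0.20), CHLM did not pass as deposited (0.30), and CHLP ranged from 0.17, which did not pass, to 1.61. By its rank within the array CHLP differed by 1.61 points, less than the median probe (2.09 points). Such calls were common on this array, where 40.7% of all probes passed, 21.4% as higher and 19.3% as lower, so the number of calls among the 3 genes does not set them apart. The median change of the 3 genes was 0.42, against 0.11 over all probes. This median is the value of CHLP alone, and the 3 genes did not share a direction.

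Deposited signals run on a linear scale from 0 to 100 with no stated unit. The median probe of a sample lay between 0.0971 and 0.128 in recovery and between 0.276 and 0.315 in cold. Of the probes of a sample, 11.3% to 16.4% were listed at 0 in recovery and 5.26% to 6.57% in cold. None of the 3 genes was listed at 0 or stood at the ceiling in any sample. Within a group, neighbouring sample numbers (1 with 2, 3 with 4, 5 with 6) were averaged as pairs, which leaves 3 values per group. Nothing in the labels says whether samples were grown or extracted separately. The p-values therefore reflect the spread among these arrays alone, which may be technical. Precision is limited by how many arrays there are. Labels name no batch, so the part of a batch in these differences was not tested.

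HEMA3 had deposited signals of 0.304, 0.330 and 0.400 (lowest, median and highest of 6 samples) in recovery, against 0.798, 1.01 and 1.5 in cold. All 6 recovery samples lay below all 6 cold samples, a separation that 49.2% of all probes showed in this direction before scaling. The pair means were 0.308, 0.342 and 0.372 in recovery and 1.46, 1.0 and 0.869 in cold. Cold samples 1 and 2 were the highest of the 12. The mean of the pairs was 0.341 ± 0.0320 in recovery and 1.11 ± 0.308 in cold (SD, n = 3 each), so the deposited signal was 3.26-fold lower in recovery.

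After quantile normalization the HEMA3 values were -1.10, -0.91 and -0.66 on the log2 scale (lowest, median and highest) in recovery, against -0.64, -0.31 and 0.21 in cold. The groups still did not overlap, as for 15.9% of all probes in this direction, but the gap between the highest recovery sample and the lowest cold sample was narrow. The change of -0.68 had a 95% confidence interval of -1.13 to -0.24 and an adjusted p of 0.0205 (limma). It lay above the changes of 19.2% of all probes. The call was lost when recovery samples 1 and 2 (-0.60, adjusted p = 0.0669), recovery samples 3 and 4 (-0.70, 0.0662) or cold samples 1 and 2 (-0.48, 0.0613) were left out. HEMA1 and HEMA2, the other HEMA genes, had no probe of their own, and whether their transcripts also bind the HEMA3 probe was not tested.

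**Figure D1:**
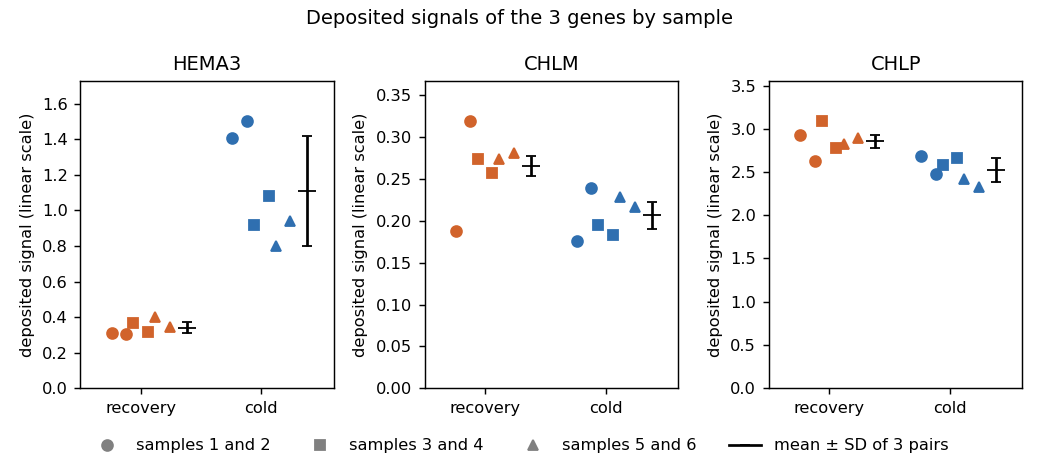
Deposited signals (linear scale, y axis from 0) of HEMA3, CHLM and CHLP in the 6 recovery and 6 cold samples, with a symbol for each sample pair and the mean ± SD of the 3 pairs beside the points. HEMA3 lies at 0.304 to 0.400 in recovery and 0.798 to 1.5 in cold, whereas for CHLM and CHLP 1 recovery sample each falls within the range of the cold samples.

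CHLM had deposited signals of 0.188, 0.274 and 0.319 (lowest, median and highest of 6) in recovery, against 0.176, 0.206 and 0.240 in cold. Recovery sample 1 was the only recovery sample within the range of the cold samples, and the other 5 lay above all of them. Only 4.91% of all probes had all 6 recovery signals above all 6 cold signals before scaling, and none of the 3 genes was among them. The mean of the pairs was 0.266 ± 0.0120 in recovery and 0.207 ± 0.0166 in cold (SD, n = 3 each), a ratio of 1.29. The deposited signal of CHLM was thus slightly higher in recovery, on arrays whose median probe was dimmer, but this difference did not pass the test on deposited signals (log2 change 0.30, adjusted p = 0.113, limma).

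Relative to the other probes the difference was larger. The normalized log2 values of CHLM were -1.66, -1.10 and -1.04 in recovery and -2.82, -2.58 and -2.39 in cold. All 6 recovery values lay above all 6 cold values, as for 19.0% of all probes. The change of 1.42 (2.67-fold) had a 95% confidence interval of 0.96 to 1.87 and an adjusted p of 3.79e-04 (limma), and it was larger than the changes of 95.3% of all probes. It kept its call with any sample or pair left out, between 1.31 and 1.52.

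CHLP was among the brighter probes. Its deposited signals were 2.63, 2.85 and 3.09 (lowest, median and highest of 6) in recovery, against 2.32, 2.53 and 2.69 in cold. Recovery sample 2 lay within the range of the cold samples and the other 5 above all of them. The mean of the pairs was 2.86 ± 0.0765 in recovery and 2.53 ± 0.137 in cold (SD, n = 3 each), a ratio of 1.13.

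After normalization CHLP stood at 1.53, 1.64 and 1.67 on the log2 scale in recovery, against 1.11, 1.2 and 1.3 in cold. The groups did not overlap, as for 19.0% of all probes in this direction. The change of 0.42 (1.34-fold) had a 95% confidence interval of 0.15 to 0.69 and an adjusted p of 0.0180 (limma). It exceeded the changes of 66.9% of all probes. The call was lost without recovery samples 5 and 6 (0.42, adjusted p = 0.0562) and when the variance was not allowed to follow the mean signal (adjusted p = 0.0753).

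**Figure D2:**
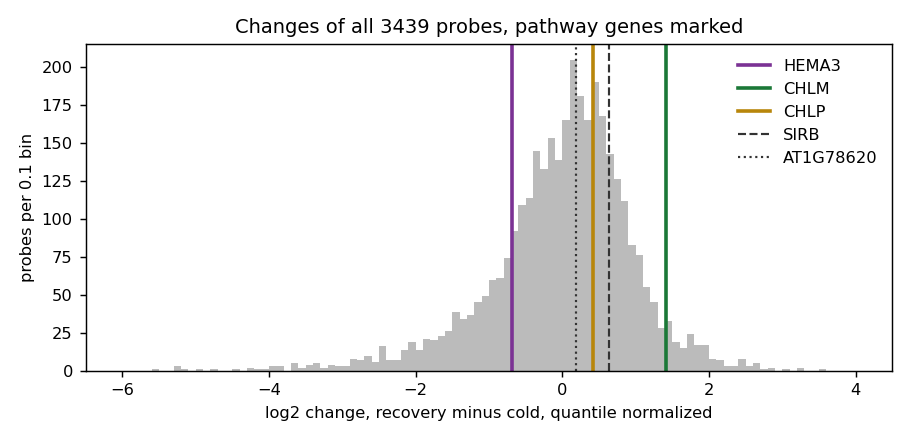
Histogram of the log2 changes, recovery minus cold, of all 3439 probes after quantile normalization (x axis, log2 units; y axis, probes per bin), with vertical lines at HEMA3 (-0.68), CHLM (1.42), CHLP (0.42), SIRB (0.63) and AT1G78620 (0.18). CHLM lies in the upper tail and HEMA3 on the lower flank, while CHLP lies close to the bulk of the probes.

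Because the signal of most probes differed between the groups, the size of each change depended on how samples were brought to a common scale. The sign was positive for CHLM and CHLP and negative for HEMA3 under each of the 5 scalings tried. HEMA3 changed by -1.56 as deposited (adjusted p = 0.00115) and by -0.84 with cyclic loess (adjusted p = 0.00582), but missed the threshold when samples were centred on their medians (-0.39, adjusted p = 0.131) or brought to a common median by a factor before the pseudocount was added (-0.20, adjusted p = 0.491). CHLM passed under every scaling except as deposited (0.30, adjusted p = 0.113), with values of 1.42 to 1.55 in the others. The size of its change after quantile normalization also depended on the pseudocount, with 1.21 when this was doubled and 1.56 when it was halved. Both passed.

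CHLP depended most on the scaling. It changed by 0.17 as deposited (adjusted p = 0.103) and by 0.31 with cyclic loess (adjusted p = 0.0580), which missed the threshold, but by 1.35 centred on medians and by 1.61 scaled before the pseudocount, which passed. Set against the median probe of the same scaling, CHLM lay higher by 1.17 to 1.48, CHLP by 0.29 to 1.46, and HEMA3 lower, at -0.86 to -0.35. The median probe itself was at -0.86 as deposited and at 0.11 after quantile normalization.

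**Figure D3:**
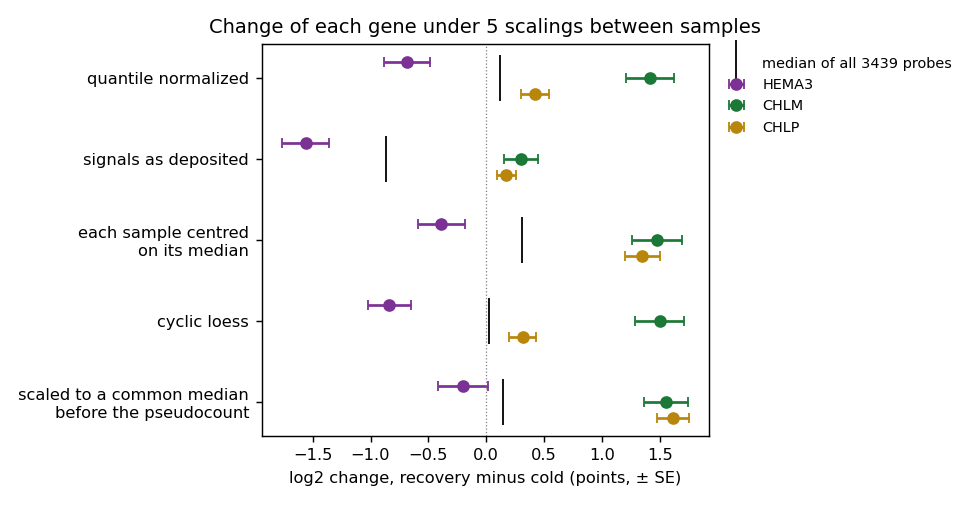
Log2 change, recovery minus cold (x axis; points ± SE over 3 averaged samples per group), of HEMA3, CHLM and CHLP under 5 scalings between samples, with a black bar at the median of all probes. HEMA3 lies left of that bar under every scaling shown and CHLM and CHLP right of it, and the distance of CHLP from it ranges from 0.29 to 1.46.

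The place of a gene among the probes of its own array does not depend on such a scaling. Ranks are given as percentiles, with 100 for the brightest probe. HEMA3 stood at 73.6, 76.4 and 79.6 (lowest, median and highest of 6) in recovery, against 79.9, 83.6 and 88.1 in cold. CHLM stood at 62.7, 73.6 and 74.5 in recovery, against 31.7, 38.3 and 43.4 in cold. In recovery the CHLM probe therefore lay in the upper part of the array, and in cold in the lower part.

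CHLP stood at 94.6, 94.9 and 95 in recovery, against 92.9, 93.3 and 93.6 in cold. Over the averaged pairs the rank of CHLM differed by 34.2 points between recovery and cold, that of CHLP by 1.61 points and that of HEMA3 by -7.83 points. The difference of CHLM was larger than that of 98.3% of all probes, whereas that of CHLP lay close to the median of all probes (2.09 points). CHLP stood near the top of the scale already in cold, so its rank had less room to rise than that of CHLM. Whether this limited its change in rank was not tested. The difference of HEMA3 was near the lower quartile of all probes (-7.43 points), with 24.2% of probes further down.

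For each of the 3 genes the recovery ranks lay on 1 side of all cold ranks, as for 19.0% of all probes upwards and 15.9% downwards. Quantile normalization also goes by rank, so this is the separation already given for the normalized values and not a further result. The permutation p-values of the ranks follow from it. The exact two-sided permutation p was 0.1 for each gene over the 3 averaged samples per group (also 0.1 adjusted over the 3 genes), the smallest that this design can give. With 6 against 6 samples taken as independent it was 0.00216, again the smallest possible and also 0.00216 after adjustment over the 3 genes.

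**Figure D4:**
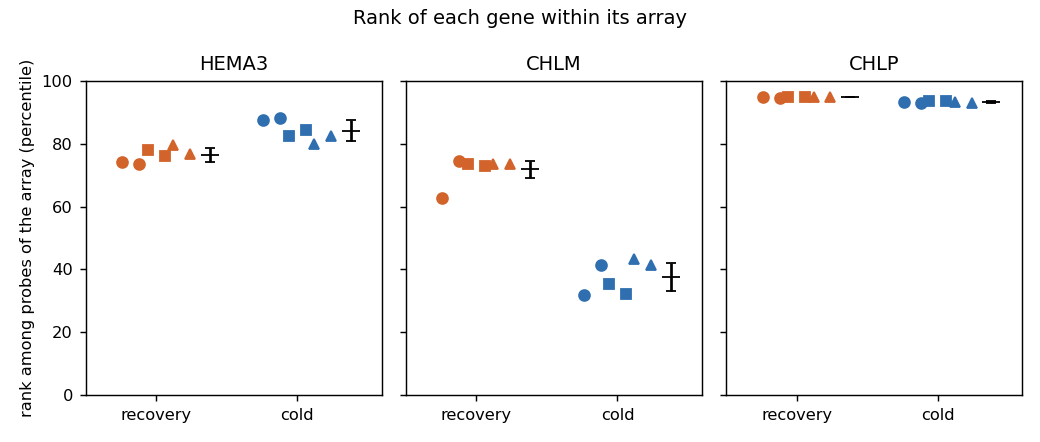
Rank of HEMA3, CHLM and CHLP among the probes of each array (y axis, percentile, 0 to 100) in the 6 recovery and 6 cold samples, with the mean ± SD of the 3 pairs. CHLM lies at 62.7 to 74.5 in recovery and 31.7 to 43.4 in cold, HEMA3 differs by -7.83 points, and CHLP stays above 92 in all samples.

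The ratio of a pair of genes within an array is likewise free of any factor that applies to the whole array, and the 3 possible ratios were compared between groups on the deposited signals. The log2 ratio of CHLM over HEMA3 was -0.72, -0.36 and 0.07 (lowest, median and highest of 6) in recovery, against -3.0, -2.4 and -1.8 in cold. That of CHLP over HEMA3 was 2.82, 3.09 and 3.24 in recovery, against 0.72, 1.3 and 1.6 in cold. Neither ratio overlapped between the groups. Of the 2390 other probes without a signal of 0, 34.9% had ratios over HEMA3 that were higher in recovery without overlap.

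The ratio of CHLM over HEMA3 was higher in recovery by 2.03 on the log2 scale, a factor of 4.07, with an interval of 1.55 to 2.49. Intervals of ratios hold the shifts that the exact permutation test over 6 against 6 samples, taken as independent, did not reject at 0.05. The ratio of CHLP over HEMA3 was higher by 1.85, a factor of 3.6 (interval 1.53 to 2.17). For both the exact two-sided permutation p was 0.1 over 3 averaged samples per group (0.15 adjusted over the 3 ratios) and 0.00216 over 6 against 6 samples (0.00325 adjusted). Both differences were thus larger than the spread between samples, but passed a threshold of 0.05 only where the 12 samples were taken as independent.

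Between CHLM and CHLP no difference in change was detected on this measure. Their log2 ratio was -3.96, -3.40 and -3.04 in recovery and -3.93, -3.57 and -3.37 in cold, with overlapping groups. The difference was 0.18 (exact two-sided permutation p = 0.3 over 3 averaged samples per group and 0.316 over 6 against 6, both also after adjustment). Its interval was -0.16 to 0.52, that is, from 0.893-fold to 1.44-fold. This interval also takes the 6 samples of each group as independent, so it may be too narrow. Averaged pairs cannot give an interval at this level, since their smallest possible p is 0.1. Whether CHLM changed more than CHLP depended on the measure. CHLM changed more after quantile normalization (1.42 against 0.42), with cyclic loess (1.5 against 0.31) and by rank (34.2 against 1.61 points), where CHLP had less room to rise. The changes lay closer together with samples centred on their medians (1.47 against 1.35) or scaled before the pseudocount (1.55 against 1.61). Both of these shift or scale a whole sample and so come close to the ratio within the array. They include the pseudocount, however, which the ratio does not. With scaling before the pseudocount CHLP changed slightly more than CHLM.

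**Figure D5:**
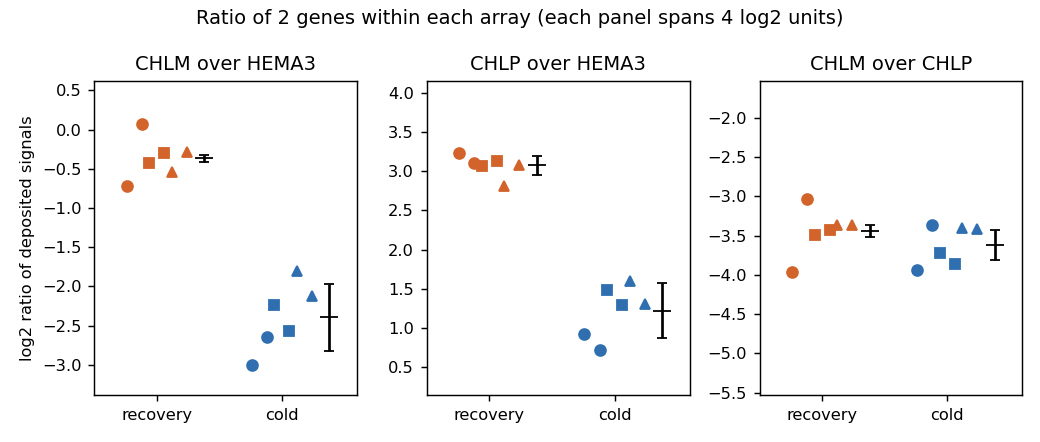
Log2 ratio of the deposited signals of 2 genes within each array (y axis; each panel spans 4 log2 units) for CHLM over HEMA3, CHLP over HEMA3 and CHLM over CHLP, by sample, with the mean ± SD of the 3 pairs. The ratios over HEMA3 lie higher in all 6 recovery samples than in any cold sample, by 2.03 and 1.85 on average, whereas CHLM over CHLP overlaps between the groups.

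Of 81 loci listed for the pathway and its surroundings in 7 groups (formation of aminolevulinic acid, its conversion to protoporphyrin, the magnesium branch, the haem and siroheme branch, chlorophyll breakdown, geranylgeranyl and phytol supply, and regulators), 5 had a probe of their own. These were the 3 genes above, SIRB (AT1G50170) and AT1G78620. A further 6 loci were represented only on 4 probes listed with several genes and are not named, and the remaining 70 were not analysed here. Neither of the 2 additional genes passed limma's test, 0 as higher and 0 as lower, where 21.4% of all probes passed as higher and 19.3% as lower. Without adjustment 0 of them had a limma p under 0.05, although SIRB was close to it (0.0507).

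SIRB encodes sirohydrochlorin ferrochelatase, which inserts iron to form siroheme, the cofactor of nitrite and sulfite reductase. Its deposited signals were 0.0210, 0.0880 and 0.160 (lowest, median and highest of 6) in recovery, against 0.0936, 0.131 and 0.212 in cold, with overlapping groups. The lowest was below the pseudocount of 0.0415. After normalization its change was 0.63 ± 0.29 (SE, n = 3 per group; adjusted p = 0.102, limma), and it passed the threshold only without recovery samples 5 and 6 (0.82, adjusted p = 0.0487) or without recovery sample 5 alone (0.82, adjusted p = 0.0352) among the samples and pairs left out in turn. By rank SIRB differed by 16.1 points, more than 86.5% of all probes, with overlapping groups. The exact permutation p of its rank, not adjusted, was 0.1 over averaged pairs and 0.0411 over 6 against 6 samples.

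AT1G78620, on the list for geranylgeranyl and phytol supply, had deposited signals of 0.207, 0.323 and 0.389 in recovery, against 0.419, 0.553 and 0.769 in cold. All recovery samples lay below all cold samples before scaling, as for 49.2% of all probes. Relative to the other probes the change was 0.18 ± 0.22 (SE, n = 3 per group; adjusted p = 0.529, limma), with an interval of -0.30 to 0.66. As deposited, its change of -0.87 (adjusted p = 0.0208) was close to that of the median probe (-0.86). For both additional genes the change was negative as deposited and positive under the other 4 scalings.

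Among 431 other probes with 1 gene, no signal of 0 and a mean above the lower quartile, those with the normalized profile over the 12 samples most like each gene were identified by the root mean square difference between centred log2 profiles. For CHLM these were LHB1B2 (AT2G34420, also LHCB1.5, a light-harvesting chlorophyll-binding protein of photosystem II) at 0.16, CUTA (AT2G33740) at 0.17 and AT1G68660 at 0.17, against a median of 0.76 over all candidates. Their own changes were 1.44, 1.45 and 1.33 in recovery relative to cold. For CHLP they were AT1G17160 at 0.11, CSLA01 (AT4G16590) at 0.12 and AT1G15140 at 0.13 (median 0.43), with changes of 0.54, 0.36 and 0.47. For HEMA3 they were AT1G50880 at 0.19, AT2G41950 at 0.20 and AT2G39360 at 0.20 (median 0.59), with changes of -0.51, -0.87 and -0.57. These genes were picked for their likeness, so their changes are a description.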

How the data were processed

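The deposited table holds array signals that the authors gave on a linear scale; background correction, scaling and the meaning of 0 and 100 are not given in the sources used here. Probes were named from the platform annotation, with loci from a RefSeq gene table (TAIR10.1) used for names only: 692 of 3439 probes had 1 gene, 870 several and 1877 were not listed, and 690 matched a locus. No sequences were used here.

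A pseudocount of 0.0415, the 10th percentile of positive signals, was added before taking log2, so a fold change understates the change of dim genes. Samples were quantile normalized and averaged in pairs, which counts fewer samples. In deviations from the group mean, the samples of a pair correlated at 0.32 to 0.55 in recovery and 0.72 to 0.84 in cold over the brightest 25% of probes, but at -0.03 to 0.06 and 0.34 to 0.50 over all probes. Recovery was compared with cold by limma 3.58.1 in R 4.3.3 (lmFit, eBayes with trend) over all probes with Benjamini-Hochberg adjustment. Samples sharing a number across groups correlated at 0.0054 to 0.15 over all probes and 0.024 to 0.29 over the brightest 25%. The labels do not say whether they share a slide, and they were not treated as paired, since not every correlation over all probes was above 0.1. The recovery pairs within the group did not reach 0.1 over all probes either. They were averaged all the same, which counts fewer samples. Ranks and ratios were compared on averaged pairs by exact permutation tests (scipy 1.17.1).

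The genes, lists and tests were chosen with earlier results of these data known. Named are the 3 genes, other listed genes with a probe of their own, and the 3 closest profiles to each. Alternatives covered scaling, pseudocount, filters on dim probes, variance model, array weights, treatment of pairs, a replicate block, a stricter threshold and samples left out.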

Additional observations from a re-analysis of the deposited data

How the results depend on the processing

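CHLM missed the threshold only as deposited (0.30, adjusted p = 0.113). CHLP missed it as deposited (0.17), with cyclic loess (0.31), without a variance trend (0.42, adjusted p = 0.0753) and at a threshold of 0.01 (0.42). It also missed it without recovery samples 5 and 6 (0.42). HEMA3 missed it centred on medians (-0.39), scaled before the pseudocount (-0.20) and at 0.01 (-0.68). It also missed it without recovery samples 1 and 2 (-0.60), recovery samples 3 and 4 (-0.70) or cold samples 1 and 2 (-0.48). As deposited, SIRB (-0.53) and AT1G78620 (-0.87) turned negative, and 1 additional pathway gene passed as lower. The count of probes passing was 1399 (52.5% higher); it was 2216 as deposited (8.66% higher), 1772 centred on medians (69.8% higher), 1406 scaled before the pseudocount (63.1% higher), 1361 with cyclic loess (46.9% higher) and 874 at 0.01. Leaving out a sample or pair gave -0.83 to -0.48 for HEMA3, 0.40 to 0.47 for CHLP, 1.31 to 1.52 for CHLM, 0.37 to 0.82 for SIRB, 0.04 to 0.35 for AT1G78620, 1084 to 1402 probes, and 0 to 1 additional pathway genes as higher. With 6 against 6 samples the exact permutation p fell under 0.05 for the ranks of HEMA3 (-7.83), CHLM (34.2) and CHLP (1.61) and for the ratios over HEMA3 of CHLM (2.03) and CHLP (1.85). In each of these the groups did not overlap. Averaged pairs cannot give a p under 0.1, whatever the separation. For CHLM over CHLP, whose groups overlapped, the exact permutation p was 0.316 with 6 against 6 samples. With a pair left out, ratio differences ran from 1.81 to 2.24, 1.65 to 1.96 and, for CHLM over CHLP, 0.09 to 0.28, and rank differences from -9.31 to -6.01 for HEMA3, 32.3 to 36.7 for CHLM and 1.52 to 1.77 for CHLP. With the replicate number as a block 1381 probes passed over averaged pairs and 1777 over 12 samples, with no change in the calls of the 3 genes. Apart from the limit on p with averaged pairs, the cause of these differences between settings was not tested. Signals near 0 limit what can be measured for SIRB.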
